A study of Mus musculus with 9 samples.

Results

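Calb1, S100g, Pvalb, Trpv5, Trpm6, Slc8a1, Atp2b1, Cnnm2 and Casr are 9 genes of calcium and magnesium handling in the distal nephron, taken by name from the 32427 genes of single-cell RNA sequencing matrices of mouse kidney. Each of the 9 matrices held the kidney cells of 1 mouse, and there were 3 mice in each of 3 groups of male C57BL/6 mice that were 6 weeks old on arrival. Control mice received saline, AKI-CKD mice received 4 weekly intraperitoneal injections of cisplatin at 8 mg/kg, and AKI-CKD + EGT mice received the same cisplatin with L-ergothioneine, a dietary antioxidant amino acid, at 0.5 mg/mL in the drinking water. Kidneys were taken after 8 weeks, so both cisplatin groups stand for the late state after repeated injury and not for the acute one. The 9 genes were read in each mouse in cell classes named from marker genes, with their level in proximal tubule-like (PT-like) cells as the background.

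Along the distal nephron, calcium crosses the tubular cell in 3 steps. It enters from the urine through the luminal channel encoded by Trpv5 and is carried across the cytosol by the calcium-binding calbindins (Calb1 and S100g). It leaves on the blood side through the sodium-calcium exchanger (Slc8a1) and the calcium pump (Atp2b1). Pvalb encodes parvalbumin, another calcium-binding protein of the cytosol. Magnesium enters the distal convoluted tubule through the channel encoded by Trpm6, and Cnnm2 encodes a basolateral membrane protein that is needed for its handling. Casr encodes the calcium-sensing receptor, which in the thick ascending limb restrains reabsorption between the cells.

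Barcodes with 1000 or more UMIs (unique molecular identifiers, 1 per captured transcript), 500 or more genes and no more than 15% of UMIs from mitochondrial genes were kept, which were 196925 of 216680, with a median of 2714 UMIs, and the total per mouse was 70106161 to 101525691 UMIs. The kept cells included 3717 thick ascending limb-like (TAL-like), 3917 distal convoluted tubule-like (DCT-like), 2494 connecting tubule-like (CNT-like), 1652 principal-like (PC-like) and 1232 intercalated-like (IC-like) cells, beside 127906 PT-like cells. The classes were named from marker lists, so the same markers describe the classes and do not test their names. Of these markers, 7 of 8 TAL, 7 of 9 DCT, 8 of 8 PC, 13 of 14 IC and 13 of 14 PT markers were highest in the class of that name. The CNT name was weak, because of 8 CNT markers Klk1 alone was highest there and the class also carried Slc12a3, the thiazide-sensitive cotransporter of the DCT. The CNT-like class is therefore read as late DCT and connecting tubule together. EGT mouse 3 stood apart, with 26.5% of its kept cells in the distal pool (5.49 to 11.7% in the other 8 mice) and 53.6% of that pool not named as a distal class (27.4 to 43.5% in the others). Over all mice, these unnamed pool cells were 4949 of mixed distal and proximal kind and 3256 others, and they are in none of the classes reported.

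The genes of luminal entry divided between the classes. Trpv5 was highest in CNT-like cells, at 117 ± 39.7 CPM (UMIs of the gene scaled to the same total in every class and mouse, given as mean ± SD over 9 mice), followed by PC-like cells at 53.8 ± 16.5 CPM. CNT-like cells were higher than PC-like cells in 9 of 9 mice, although the ranges of 73.9 to 181 and 34.6 to 82.1 CPM overlapped. In DCT-like cells Trpv5 was at 2.39 ± 1.94 CPM, and in PT-like cells at 0.546 ± 0.569 CPM. Trpm6 had the other pattern. It was highest in DCT-like cells at 299 ± 70.9 CPM (179 to 414), and next in CNT-like cells at 123 ± 31.4 CPM (75.6 to 168), with no overlap of the 9 mice. PC-like cells had 10.05 ± 6.32 CPM of Trpm6, and PT-like cells 1.92 ± 1.45 CPM.

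The 3 calcium-binding proteins each had a different order. S100g reached 50861 ± 15343 CPM in CNT-like cells, which was higher in every mouse than in PC-like cells (15073 ± 7104 CPM), and it then went down over IC-like cells (3347 ± 1771 CPM) and DCT-like cells (2194 ± 1112 CPM), whose ranges overlapped. Calb1 was also highest in CNT-like cells, at 3005 ± 1283 CPM. DCT-like cells had 832 ± 510 CPM of Calb1 and PC-like cells 693 ± 359 CPM, and these neighbours did not differ beyond their spread, with DCT-like cells higher in 5 of 9 mice. Pvalb stood in a single class. Its level was 1108 ± 325 CPM in DCT-like cells, and the next named tubular class was CNT-like at 32.7 ± 23.9 CPM, without overlap.

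Of the genes of basolateral exit, Slc8a1 followed the calcium side of the nephron, with 5605 ± 1609 CPM in CNT-like cells, 915 ± 245 CPM in PC-like cells and 674 ± 440 CPM in DCT-like cells, the last pair overlapping. Atp2b1 did not behave as a distal gene in these cells. It was highest in stromal-like cells at 139 ± 46.5 CPM, and the named distal classes lay between 57.4 CPM (IC-like) and 82.9 ± 10.5 CPM (DCT-like), near the 54.4 ± 5.41 CPM of PT-like cells. PT-like cells, which were 65.0% of the kept cells, held 75.5% of all Atp2b1 UMIs. DCT-like cells were nevertheless above PT-like cells in each mouse, with ranges of 67.0 to 103 and 47.5 to 64.4 CPM.

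Cnnm2 had its highest level in DCT-like cells at 152 ± 22.2 CPM and its next in CNT-like cells at 92.8 ± 13.6 CPM, and these did not overlap. TAL-like cells, at 18.8 ± 7.27 CPM, were close to PT-like cells at 15.6 ± 2.43 CPM. Because PT-like cells were so many, 62.7% of Cnnm2 UMIs came from them. Casr was highest in TAL-like cells at 116 ± 35.2 CPM, above DCT-like cells at 27.2 ± 9.93 CPM in every mouse. The DCT-like, CNT-like (24.7 ± 7.20 CPM), IC-like (21.7 ± 10.7 CPM) and PC-like (18.3 ± 5.59 CPM) classes overlapped with each other, and all were above the 1.03 ± 0.837 CPM of PT-like cells.

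**Figure D1:**
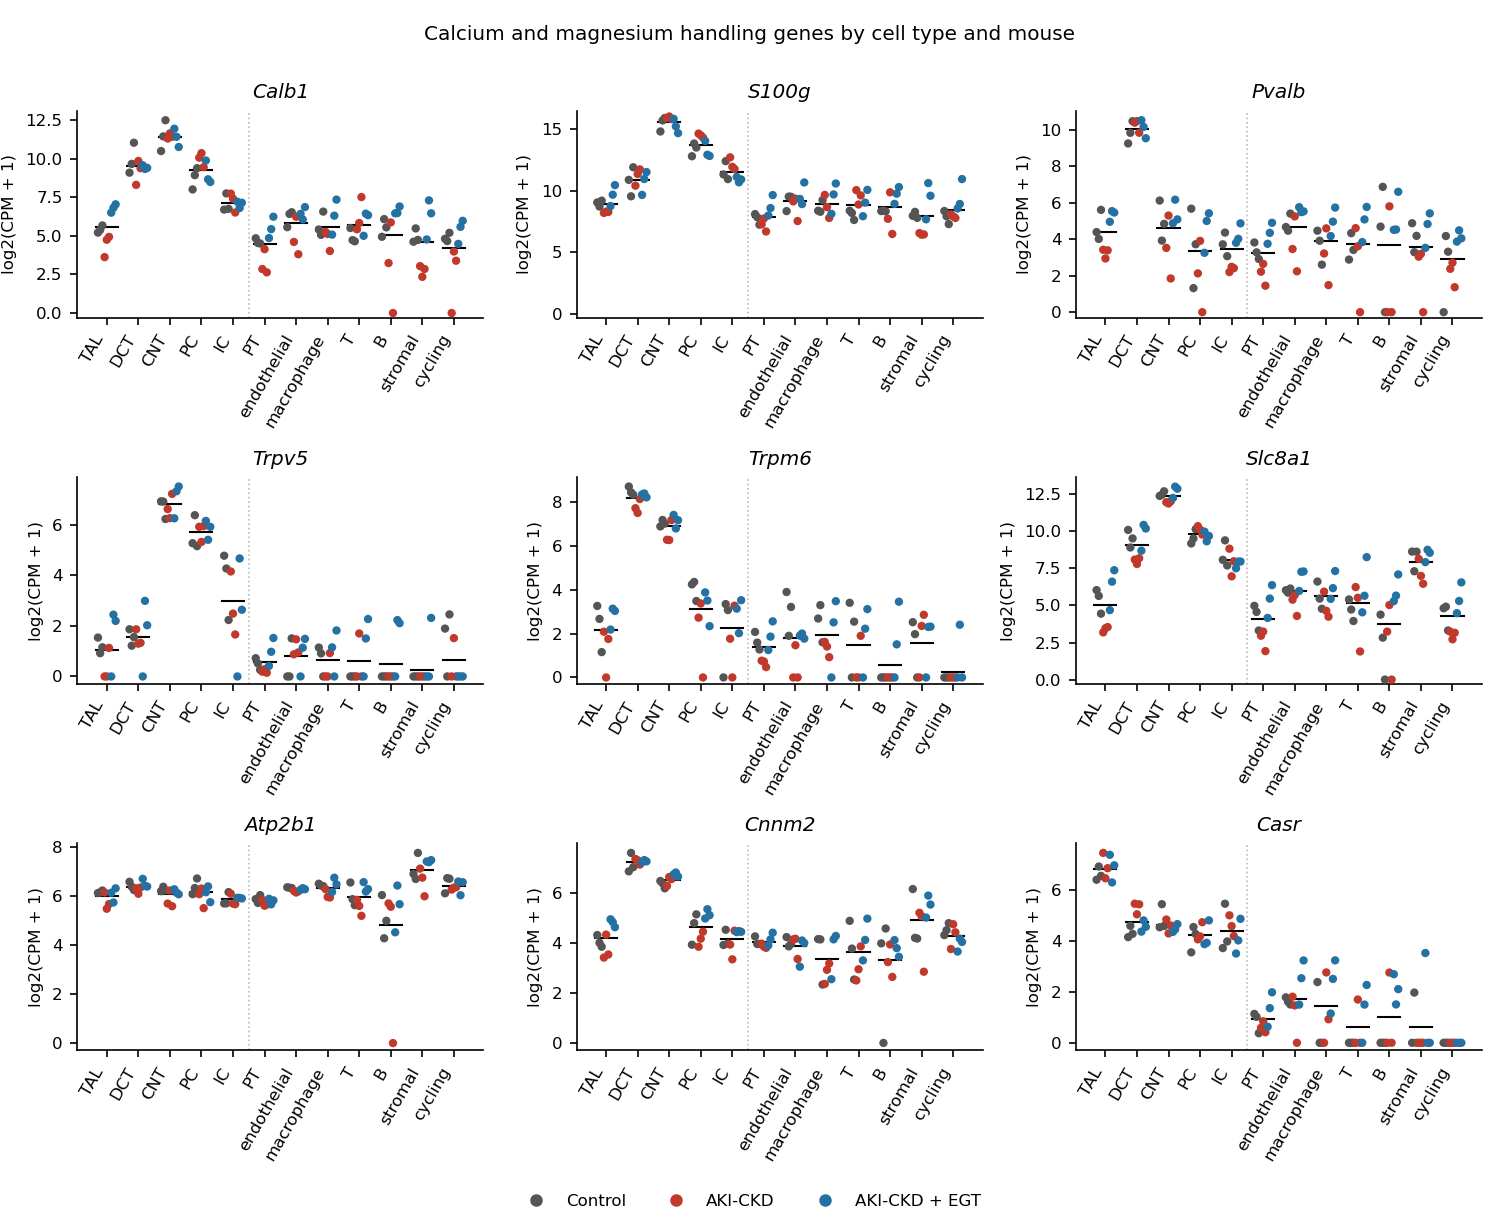
Level of the 9 calcium and magnesium handling genes, as log2(CPM + 1), in each named cell class, with 1 dot per mouse and a black bar at the mean of the log values over 9 mice; a dotted line separates the distal classes from the others. Trpm6, Pvalb and Cnnm2 peak in DCT-like cells, Trpv5, Calb1, S100g and Slc8a1 in CNT-like cells and Casr in TAL-like cells, while Atp2b1 differs less between the distal classes than the other genes and is highest in stromal-like cells.

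The levels in DCT-like and CNT-like cells depended on how the cells were named. The 9 genes and the pathway genes were kept out of the genes used for clustering, since their levels were to be described. When all variable genes were used, DCT-like cells had 20.03 ± 10.8 CPM of Trpv5, 2496 ± 1055 CPM of Slc8a1 and 4667 ± 2016 CPM of S100g, and CNT-like cells had only 26.5 ± 12.8 CPM of Trpm6. When single cells were gated on marker UMIs instead, CNT-like cells had 1716 ± 531 CPM of Slc8a1 and 22261 ± 9985 CPM of S100g. The gate took 9776 cells as CNT-like, 2842 of them from EGT mouse 3, against 2494 by clustering. It took 3188 cells as DCT-like, against 3917 by clustering. Many of the added CNT-like cells thus came from outside the DCT-like class. Among DCT-like, CNT-like and TAL-like cells, each of the 9 genes was highest in the same class under the 5 settings compared. Levels by mouse of PC-like and IC-like cells were not compared between the settings. The places of these classes in the orders above therefore rest on the naming used. PC-like cells also held 15010 CPM of Klk1, the marker highest in CNT-like cells (115409 CPM), so some CNT-like cells may be among them.

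The share of cells with at least 1 UMI was compared after every cell was thinned to 1000 UMIs, because the median depth was 1929 UMIs in TAL-like, 2232 in DCT-like, 2223 in CNT-like and 3315 in PT-like cells. S100g was found in 93.3% of CNT-like cells (mean of 9 mice), and Slc8a1 and Calb1 in 78.8% and 71.7% of them. The PT-like background was 23.0%, 2.81% and 3.17% for the same genes. In DCT-like cells Pvalb was found in 48.3%, Trpm6 in 17.9% and Cnnm2 in 11.1%, against 1.32%, 0.209% and 1.58% of PT-like cells. Trpv5 was found in 9.11% of CNT-like and 0.0648% of PT-like cells, and Casr in 10.2% of TAL-like and 0.122% of PT-like cells. Without thinning these shares were 96.2% for S100g, 87.7% for Slc8a1, 83.8% for Calb1 and 19.0% for Trpv5 in CNT-like cells, 61.9% for Pvalb, 33.9% for Trpm6 and 26.9% for Cnnm2 in DCT-like cells, and 18.9% for Casr in TAL-like cells. The unthinned PT-like shares were 50.9% for S100g, 8.43% for Slc8a1, 9.21% for Calb1, 0.226% for Trpv5, 4.06% for Pvalb, 0.767% for Trpm6, 5.85% for Cnnm2 and 0.419% for Casr. Atp2b1 was found in 7.29% of DCT-like and 5.07% of PT-like cells after thinning, and in 19.3% and 18.1% without it. In TAL-like cells the thinned shares were 4.95% for Calb1, 30.3% for S100g, 2.74% for Pvalb and 4.64% for Slc8a1, each above the PT-like share and far under that of the class where the gene was highest.

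The ratio of the calcium-binding protein genes to each other varied less among the classes with low levels than among the DCT-like, CNT-like, PC-like and IC-like classes. In the summed UMIs of all mice there were 10.2 UMIs of S100g for each UMI of Calb1 in TAL-like cells, 10.6 in PT-like, 10.1 in endothelial-like, 9.74 in macrophage-like, 10.3 in B-like and 9.29 in stromal-like cells. T-like cells, with 203 UMIs of Calb1, had 7.85 and cycling cells, with 68, had 15.1. The ratio was 2.58 in DCT-like, 17.1 in CNT-like, 21.7 in PC-like and 23.4 in IC-like cells. For Pvalb to Calb1 the ratio was 0.409 in TAL-like and 0.407 in PT-like cells, against 1.35 in DCT-like and 0.0106 in CNT-like cells, and the immune-like, endothelial-like, stromal-like and cycling classes lay between 0.271 (T-like) and 0.611 (B-like). In these sums over all mice, Calb1, S100g and Pvalb in TAL-like cells thus stood in nearly the same ratio as in PT-like cells. This did not hold in each mouse. In Control mouse 3 the CPM in TAL-like over that in PT-like cells was 2.30 for Calb1, 3.88 for S100g and 7.29 for Pvalb. In EGT mouse 2 the same values were closer, at 2.64, 2.12 and 2.35. The ratio of Slc8a1 to Calb1 separated the classes less, with 0.971 in TAL-like, 0.887 in PT-like, 0.873 in DCT-like, 1.86 in CNT-like and 5.33 in stromal-like cells.

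Within a class the genes were not spread evenly over the cells. Among thinned DCT-like cells, Slc8a1 was found in 38.5% of those with a Trpm6 UMI and 16.04% of those without, and Cnnm2 in 22.4% and 8.74%, both higher in 9 of 9 mice. S100g went the other way, with 30.4% of cells with a Trpm6 UMI and 37.5% of those without, and was higher with Trpm6 in 0 of 9 mice. Calb1 was found in 38.7% of DCT-like cells with a Pvalb UMI and 28.1% of those without (8 of 9 mice). In CNT-like cells, S100g was found in 97.6% of cells with Calb1 and 83.1% of cells without, and Slc8a1 in 91.1% of cells with Trpm6 and 77.4% of cells without (each in 9 of 9 mice).

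Part of this unevenness ran along Malat1, a noncoding RNA that is retained in the nucleus. Of the distal clusters, 5 held over 10000 CPM of Malat1, a limit set after the clusters were seen. In DCT-like cells, Trpm6 was at 622 ± 121 CPM in the Malat1-rich clusters and 98.7 ± 17.0 CPM in the others, Slc8a1 at 1437 ± 876 and 176 ± 111 CPM, and Cnnm2 at 257 ± 40.4 and 90.9 ± 23.6 CPM. Atp2b1 was at 118 ± 20.4 and 61.3 ± 7.74 CPM. The 4 genes were higher in the rich clusters in 9 of 9 mice without overlap. Calb1 (494 ± 176 against 1026 ± 675 CPM) and Pvalb (864 ± 272 against 1253 ± 371 CPM) were lower there in 8 and 9 of 9 mice, with overlapping ranges, and S100g (1683 ± 915 against 2528 ± 1317 CPM) was higher in 2 of 9 mice. Casr in DCT-like cells (31.7 ± 9.56 against 24.4 ± 12.2 CPM) overlapped. CNT-like cells had more Trpv5 (220 ± 78.1 against 56.9 ± 9.55 CPM), Trpm6 (248 ± 82.0 against 64.8 ± 25.3 CPM) and Slc8a1 (11617 ± 3191 against 2664 ± 508 CPM) in the rich clusters, without overlap. They had less S100g (26247 ± 14728 against 63026 ± 12192 CPM) and Calb1 (1555 ± 689 against 3702 ± 1419 CPM) there in each mouse, with overlapping ranges. In TAL-like cells Casr was at 228 ± 86.8 CPM in the rich clusters and 77.4 ± 29.3 CPM in the others. These ranges overlapped, although Casr was higher in the rich clusters in 9 of 9 mice. The Malat1-rich share of DCT-like cells was 22.5 to 41.0% in Control, 20.9 to 25% in AKI-CKD and 26.9 to 37.6% in AKI-CKD + EGT mice.

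**Figure D2:**
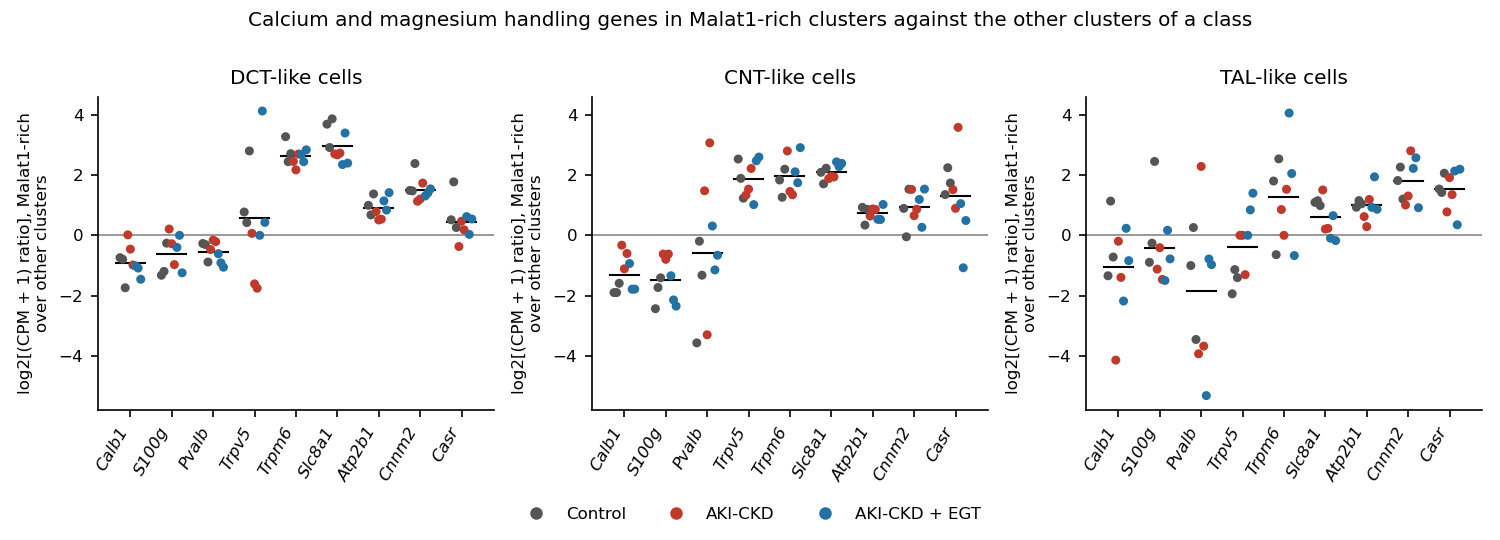
Ratio of the level in Malat1-rich clusters to that in the other clusters of the same class, as log2 of (CPM + 1) over (CPM + 1), with 1 dot per mouse, for the 9 genes in DCT-like, CNT-like and TAL-like cells; values above 0 are higher in the Malat1-rich clusters. Trpm6, Slc8a1 and Cnnm2 lie above 0 in all 9 mice in DCT-like cells, and Pvalb lies below 0 in all 9.

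The cisplatin comparison sets AKI-CKD mice against Control mice and asks what remains changed after the drug, and the EGT comparison sets the mice given both agents against AKI-CKD mice and asks what differs with the antioxidant. Both use the same 3 AKI-CKD mice, so low or high values in these mice move both comparisons. UMIs were summed per mouse and class and tested with edgeR's quasi-likelihood test over all genes, with Benjamini-Hochberg adjustment and a threshold of 0.05. The values by mouse below are CPM after TMM scaling, given for mice 1, 2 and 3 of a group in that order, and fold changes are on the log2 scale with their standard error. The labels do not say more of the mice than a number, and the p-values set a difference between groups against the spread between mice.

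In DCT-like cells none of the 8 genes tested passed in either comparison (Trpv5 had too few UMIs). The background was 0% in the cisplatin comparison, where edgeR called 0 of 9868 genes with 807 under an unadjusted p of 0.05. DESeq2 called 4 of 21838 genes there. In the EGT comparison the background was also 0%, with 1159 genes under an unadjusted p of 0.05. DESeq2 called 55 of the 1093 genes to which it gave an adjusted p (5.03%). The medians of the 8 genes were 0.03 and -0.05 on the log2 scale, against -0.03 and 0.01 over all genes. In the cisplatin comparison, Casr was above the Control mice in each AKI-CKD mouse, as were 7.60% of all genes, and Trpm6 and Slc8a1 were below, as were 6.84% of all genes.

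Slc8a1, the exchanger, had the largest differences of the 8 genes in DCT-like cells as clustered here. Its values were 1101, 485 and 733 CPM in the Control mice, 285, 242 and 303 CPM in AKI-CKD, and 410, 1346 and 1152 CPM in AKI-CKD + EGT mice. The AKI-CKD mice were the 3 lowest and close to each other, and neither other group overlapped with them, as for 9.34% of all genes that were higher in AKI-CKD + EGT. The log2 fold change was -1.48 ± 0.35 (adjusted p = 0.431) in the cisplatin comparison and 1.81 ± 0.35 (adjusted p = 0.181) in the EGT comparison. With EGT mouse 1 left out, the second difference was 2.18 and passed (adjusted p = 0.00234), among 30 of 9913 genes called in that fit. DESeq2 also called it (adjusted p = 0.0146), among 55 of 1093 genes. Over all alternatives its adjusted p ran from 7.28e-13 without a filter on low counts to 0.845 without EGT mouse 3. Without the Malat1-rich clusters the fold changes were -0.59 ± 0.29 (adjusted p = 0.648) and 1.59 ± 0.28 (adjusted p = 0.0760), and with all variable genes in the clustering -0.63 and 1.00, less than those of S100g in that setting. PT-like cells had 3.11 to 68.6 CPM of Slc8a1 over the 9 mice, so their level was far under that of DCT-like cells.

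Trpm6 and Casr moved in opposite directions in DCT-like cells, neither past the threshold. Trpm6 was at 416, 346 and 319 CPM in the Control mice, 218, 195 and 290 CPM in AKI-CKD and 318, 323 and 289 CPM in AKI-CKD + EGT mice, a log2 fold change of -0.63 ± 0.19 (adjusted p = 0.461) and then 0.41 ± 0.19 (adjusted p = 0.417). The 3 AKI-CKD mice were below the 3 Control mice, but 1 of them reached the lowest AKI-CKD + EGT mouse, and without the Malat1-rich clusters the differences were -0.23 and 0.12. Casr was at 16.9, 23.3 and 18.3 CPM in the Control mice, 45.0, 34.9 and 44.1 CPM in AKI-CKD and 19.4, 26.2 and 22.1 CPM in AKI-CKD + EGT mice. All 3 AKI-CKD mice were above the other 6 (8.70% of all genes were lower in AKI-CKD + EGT without overlap), with log2 fold changes of 1.05 ± 0.25 (adjusted p = 0.431) and -0.87 ± 0.24 (adjusted p = 0.258). The summed level of the TAL marker list in the same cells was 1739 to 3199 CPM in Control, 3355 to 3812 CPM in AKI-CKD and 2256 to 4300 CPM in AKI-CKD + EGT mice, and its part in the Casr values was not tested.

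The small calcium-binding proteins varied more between mice than between groups in DCT-like cells. Calb1 was at 552, 822 and 2103 CPM in the Control mice, 331, 1013 and 700 CPM in AKI-CKD and 755, 630 and 669 CPM in AKI-CKD + EGT mice. The Control mice spanned most of the range, and the log2 fold changes were -0.76 ± 0.40 (adjusted p = 0.639) and 0.01 ± 0.40 (adjusted p = 0.997). With a mouse left out, the first ran from -1.18 (without AKI-CKD mouse 2) to -0.01 (without Control mouse 3) and the second from -0.33 to 0.42. Pvalb was at 612, 918 and 1413 CPM, then 1402, 1553 and 952 CPM, and then 1455, 1108 and 730 CPM in the same order of groups. All groups overlapped for Pvalb (0.41 ± 0.29 and -0.25 ± 0.29), for S100g (0.27 ± 0.48 and -0.48 ± 0.48), for Cnnm2 (0.15 ± 0.20 and -0.12 ± 0.20) and for Atp2b1 (-0.09 ± 0.19 and 0.15 ± 0.19). The S100g differences depended on the setting, with 0.98 ± 0.26 (adjusted p = 0.364) and -1.24 ± 0.26 (adjusted p = 0.141) when all variable genes were used in the clustering. With a mouse left out, the first ran from -0.13 (without Control mouse 2) to 0.98 (without Control mouse 3) and the second from -0.94 (without EGT mouse 3) to -0.12 (without EGT mouse 1), none past the threshold.

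In CNT-like cells none of the 9 genes passed, against a background of 0.0272% in the cisplatin comparison (2 of 7345 genes, Cdkn1a higher and Ttr lower, and 3 by DESeq2) and 0% in the EGT comparison (916 genes under an unadjusted p of 0.05 and 1 called by DESeq2). In the first comparison 639 genes were under an unadjusted p of 0.05. The medians of the 9 genes were -0.22 and 0.15, against -0.02 and 0.00 over all genes. S100g was above Control in each AKI-CKD mouse, as were 9.61% of all genes, and Slc8a1 was below, as were 8.02%. The summed DCT marker list in these cells was 4663 to 5336 CPM in Control, 3863 to 4544 CPM in AKI-CKD and 4460 to 5623 CPM in AKI-CKD + EGT mice. Their median UMIs per cell were 1850 to 1917, 2295.5 to 2807 and 1773.5 to 2668 in the same order. The part of either in these values was not tested.

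S100g in CNT-like cells was at 29258, 56409 and 60794 CPM in the Control mice, 67843, 76189 and 62644 CPM in AKI-CKD and 63007, 37433 and 25992 CPM in AKI-CKD + EGT mice. Control mouse 1 and EGT mice 2 and 3 were the low ones, and EGT mouse 1 was within the range of AKI-CKD. The log2 fold change was 0.50 ± 0.37 (adjusted p = 0.664) and then -0.71 ± 0.37 (adjusted p = 0.432). Slc8a1 was at 5420, 5926 and 6535 CPM in the Control mice, 4378, 4263 and 4473 CPM in AKI-CKD and 5212, 8009 and 7413 CPM in AKI-CKD + EGT mice, so that the AKI-CKD mice were again the 3 lowest. The log2 fold changes were -0.45 ± 0.24 (adjusted p = 0.583) and 0.65 ± 0.24 (adjusted p = 0.285), the latter without overlap, as for 7.52% of all genes. With EGT mouse 1 left out, 840 genes passed in the EGT comparison, among them S100g (-1.13, adjusted p = 0.0161) and Slc8a1 (0.80, adjusted p = 0.0115). Over all alternatives the adjusted p reached 1 for S100g and 0.881 for Slc8a1, and without the Malat1-rich clusters the differences were -0.37 ± 0.22 and 0.24 ± 0.18.

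The channels overlapped between groups in CNT-like cells. Trpv5 was at 121, 125 and 72.2 CPM in the Control mice, 107, 85.4 and 158 CPM in AKI-CKD and 80.2, 154 and 178 CPM in AKI-CKD + EGT mice, with log2 fold changes of 0.10 ± 0.31 (adjusted p = 0.937) and 0.27 ± 0.30 (adjusted p = 0.732). Trpm6 was at 118, 149 and 125 CPM, then 83.5, 85.4 and 153 CPM, and then 179, 106 and 140 CPM, and neither comparison separated the mice. Calb1 went from 1463 to 5675 CPM within the Control group alone, wider than the differences between groups (-0.10 ± 0.38 and -0.12 ± 0.38). With a mouse left out, these differences ran from -0.46 to 0.52 and from -0.53 to 0.14, so that both could change sign. Pvalb, Atp2b1, Cnnm2 and Casr were between -0.73 and 0.95 in both comparisons, with overlapping mice. Both ends were those of Pvalb, which had 227 UMIs in CNT-like cells and ran from -2.02 (without AKI-CKD mouse 2) to 0.05 (without Control mouse 1) and from 0.52 (without EGT mouse 2) to 2.24 (without AKI-CKD mouse 2) with a mouse left out.

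**Figure D3:**
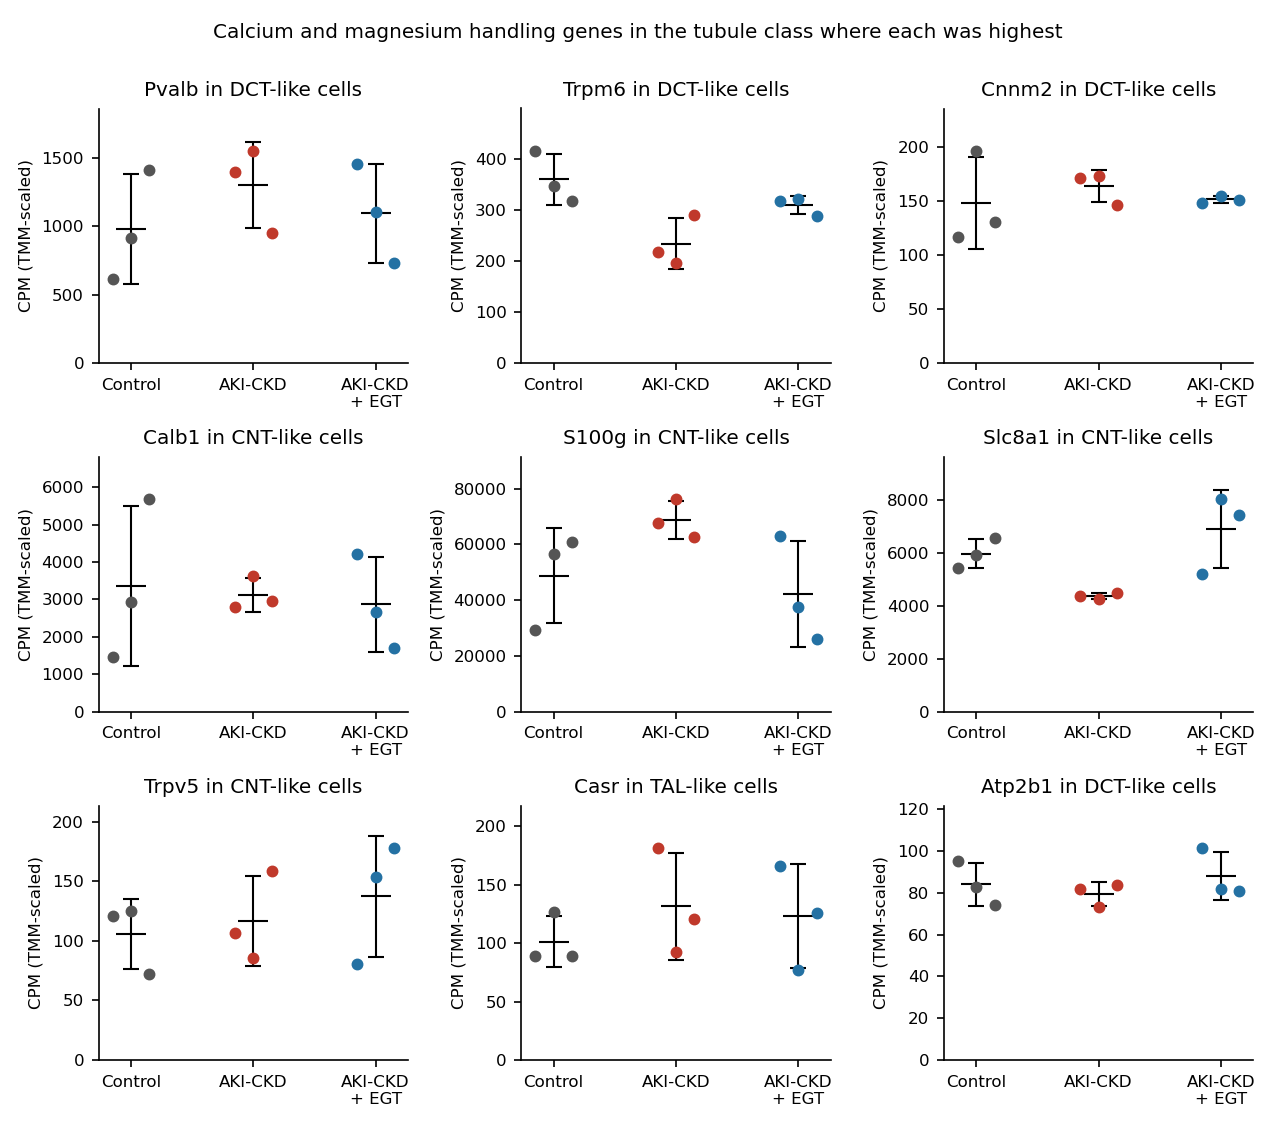
TMM-scaled CPM of each of the 9 genes in the distal class where it was highest, with 1 point per mouse and the mean ± SD of 3 mice for Control, AKI-CKD and AKI-CKD + EGT, each axis starting at 0. Slc8a1 in CNT-like cells has its 3 AKI-CKD mice below the other 6, and the mice of Trpv5, Calb1, Pvalb, Cnnm2, Atp2b1 and Casr overlap between groups.

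In TAL-like cells 3 genes passed in the EGT comparison, where Calb1, Slc8a1 and Pvalb rose, against a background of 0.0570% of genes called higher (5 of 8773). Their levels there were low, with a mean over 9 mice of 58.7 ± 42.1 CPM for Calb1 against 27.3 ± 21.2 CPM in PT-like cells. Endothelial-like cells had means of 66.8 CPM for Calb1, 74.9 CPM for Slc8a1 and 31.1 CPM for Pvalb. Each was above the TAL-like mean, with overlapping ranges. Macrophage-like and T-like means were also above it for Calb1 and Slc8a1 but below it for Pvalb, and cycling cells were below it for all 3 genes. Groups were not compared in these classes. In TAL-like cells Calb1 was at 11.8, 27.5 and 31.1 CPM in AKI-CKD and 90.0, 111 and 133 CPM in AKI-CKD + EGT mice, with 38.3, 43.1 and 48.0 CPM in Control. The AKI-CKD + EGT mice were the 3 highest and the AKI-CKD mice the 3 lowest, and the log2 fold change was 2.21 ± 0.27 (adjusted p = 0.000859). Slc8a1 was at 68.5, 51.6 and 19.9 CPM in the Control mice, 8.40, 10.6 and 11.2 CPM in AKI-CKD and 24.7, 95.8 and 167 CPM in AKI-CKD + EGT mice. It rose by 3.30 ± 0.54 (adjusted p = 0.0202), although its AKI-CKD + EGT mice differed widely from each other.

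Pvalb in TAL-like cells was at 21.1, 15.9 and 45.7 CPM in the Control mice, 10.1, 7.09 and 9.94 CPM in AKI-CKD and 30.01, 45.1 and 43.5 CPM in AKI-CKD + EGT mice, and rose by 2.19 ± 0.40 (adjusted p = 0.0438). These calls rest on few molecules. Over the 9 mice, TAL-like cells held 229 UMIs of Pvalb, 544 of Slc8a1 and 560 of Calb1. S100g, at 306, 335 and 327 CPM in AKI-CKD and 434, 817 and 1430 CPM in AKI-CKD + EGT mice, missed the threshold with 1.48 ± 0.28 (adjusted p = 0.0508). S100g passed in 6 of 16 alternatives (DESeq2, no filter, only the 6 mice compared, the gate, all variable genes and without EGT mouse 1), with an adjusted p of 5.35e-10 to 0.278 over all of them. Calb1, Slc8a1, Pvalb, S100g and Cnnm2 (0.86 ± 0.33, adjusted p = 0.228) did not overlap between the groups, as did 8.62% of all genes in that direction. The median of the 7 genes tested was 1.48, against 0.03 over all genes. Casr, the gene with its highest level in these cells, was at 181, 92.2 and 121 CPM in AKI-CKD and 166, 77.1 and 126 CPM in AKI-CKD + EGT mice, which overlapped (-0.09 ± 0.27, adjusted p = 0.911).

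The call of Calb1 held with each mouse left out in turn, with an adjusted p of 0.000152 to 0.0115. Slc8a1 and Pvalb passed only when EGT mouse 1 was the one left out, and not without AKI-CKD mouse 1, 2 or 3 or EGT mouse 2 or 3, where the highest adjusted p were 0.278 and 0.323 (both without AKI-CKD mouse 2). Their fold changes were 2.61 to 3.68 and 1.99 to 2.31 over these fits. Without the 10% of distal cells with most proximal markers, both calls were lost (3.45, adjusted p = 0.0508 for Slc8a1, and 2.10, adjusted p = 0.107 for Pvalb), as they were with the replicate block (3.23, adjusted p = 0.124, and 2.16, adjusted p = 0.123). Pvalb was also lost without the Malat1-rich clusters (adjusted p = 0.0508), and DESeq2 gave it no adjusted p. Over all alternatives its adjusted p lay between 1.87e-06 and 0.323, and that of Slc8a1 between 2.11e-23 and 0.278. In the cisplatin comparison, edgeR called none of the 7 genes and 0 of 8773 (a background of 0%), with 842 genes under an unadjusted p of 0.05 and 0 called by DESeq2. Calb1 (-0.81 ± 0.29, adjusted p = 0.411), S100g (-0.70 ± 0.28, adjusted p = 0.474), Pvalb (-1.61 ± 0.42, adjusted p = 0.363) and Slc8a1 (-2.19 ± 0.58, adjusted p = 0.363) were below Control in each AKI-CKD mouse, as were 7.66% of all genes, and the median of the 7 genes was -0.70 against -0.02 over all genes.

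PT-like cells gave the background of the same genes by mouse. Calb1 was at 25.9, 23.7 and 22.5 CPM in the Control mice, 6.46, 17.6 and 5.83 CPM in AKI-CKD and 27.9, 40.6 and 62.7 CPM in AKI-CKD + EGT mice. Slc8a1 was at 28.4, 24.1 and 9.22 CPM, then 7.04, 8.96 and 3.11 CPM, and then 16.8, 41.4 and 68.6 CPM. As in TAL-like cells, the AKI-CKD mice were the lowest and EGT mouse 3 the highest for both. In the EGT comparison, Calb1 (2.14 ± 0.41), S100g (1.37 ± 0.36), Pvalb (2.29 ± 0.37), Trpv5 (2.52 ± 0.60), Trpm6 (2.11 ± 0.42) and Slc8a1 (2.74 ± 0.56) were higher without overlap, as were 9.96% of all genes. None passed, each with an adjusted p of 0.218. The median of the 9 genes was 2.11, against -0.01 over all genes.

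edgeR called 0 of 17789 genes in PT-like cells in that comparison (a background of 0%), with 2632 under an unadjusted p of 0.05, and DESeq2 called 405, these 6 genes among them. With EGT mouse 1 left out, 5 of the 6 passed (all but S100g) among 141 of 18631 genes called, and with AKI-CKD mouse 2 left out Calb1 was the 1 gene called (adjusted p = 0.0471). In the cisplatin comparison none of the 9 genes was among the 8 called by edgeR, a background of 0.0450%. DESeq2 called 195 genes there, among them Pvalb (-1.32, adjusted p = 0.0201) and Trpm6 (-1.83, adjusted p = 0.00257), and edgeR without a filter on low counts also called both. In edgeR's test with the filter, Calb1 (-1.28 ± 0.40, adjusted p = 0.346), Pvalb (-1.33 ± 0.36, adjusted p = 0.321), Trpm6 (-1.83 ± 0.42, adjusted p = 0.247) and Slc8a1 (-1.70 ± 0.55, adjusted p = 0.360) were lower without overlap, as were 8.96% of all genes. Atp2b1 and Cnnm2, which PT-like cells held at levels near those of TAL-like cells, differed by at most 0.11 in either comparison.

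The level in TAL-like cells was also divided by that in PT-like cells of the same mouse, an alternative chosen after the data were seen. Both levels were CPM without TMM scaling, which is set within each class. The Calb1 ratio was 1.30, 1.84 and 2.30 in Control, 1.82, 1.56 and 5.67 in AKI-CKD and 3.21, 2.64 and 1.75 in AKI-CKD + EGT mice. The 3 groups overlapped, and the log2 ratio differed by -0.04 in the EGT comparison (exact two-sided permutation test, p = 0.9, where 3 against 3 mice cannot go below 0.1). For Slc8a1 the difference was 0.09 (exact permutation p = 1), for Pvalb -0.38 (exact permutation p = 0.7) and for S100g -0.14 (exact permutation p = 0.8). With TMM-scaled CPM the differences were 0.10 for Calb1, 0.23 for Slc8a1, -0.24 for Pvalb and 0.00 for S100g (exact permutation p = 0.9, 0.8, 0.7 and 1), so that the sign changed for Calb1 and S100g. The summed CNT marker list in PT-like cells was 210 to 586 CPM in Control, 170 to 346 CPM in AKI-CKD and 431 to 1459 CPM in AKI-CKD + EGT mice, and the DCT list 114 to 227, 98.7 to 122 and 168 to 363 CPM. Both upper ends in AKI-CKD + EGT were those of EGT mouse 3. EGT mice 1 and 2 had 431 and 573 CPM of the CNT list and 168 and 207 CPM of the DCT list, within the Control ranges. In TAL-like cells the DCT list was 1066 to 1167 CPM in Control, 882 to 1308 CPM in AKI-CKD and 1175 to 1487 CPM in AKI-CKD + EGT mice. The CNT list there was 5257 to 7390 CPM in Control, 7874 to 10353 CPM in AKI-CKD and 6011 to 9080 CPM in AKI-CKD + EGT mice. Its sum was mostly Klk1, of which TAL-like cells held 110 UMIs for each UMI of Calb1, against 14.2 in PT-like and 39.0 in CNT-like cells. The part of such transcripts in the calls was not tested beyond these ratios.

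**Figure D4:**
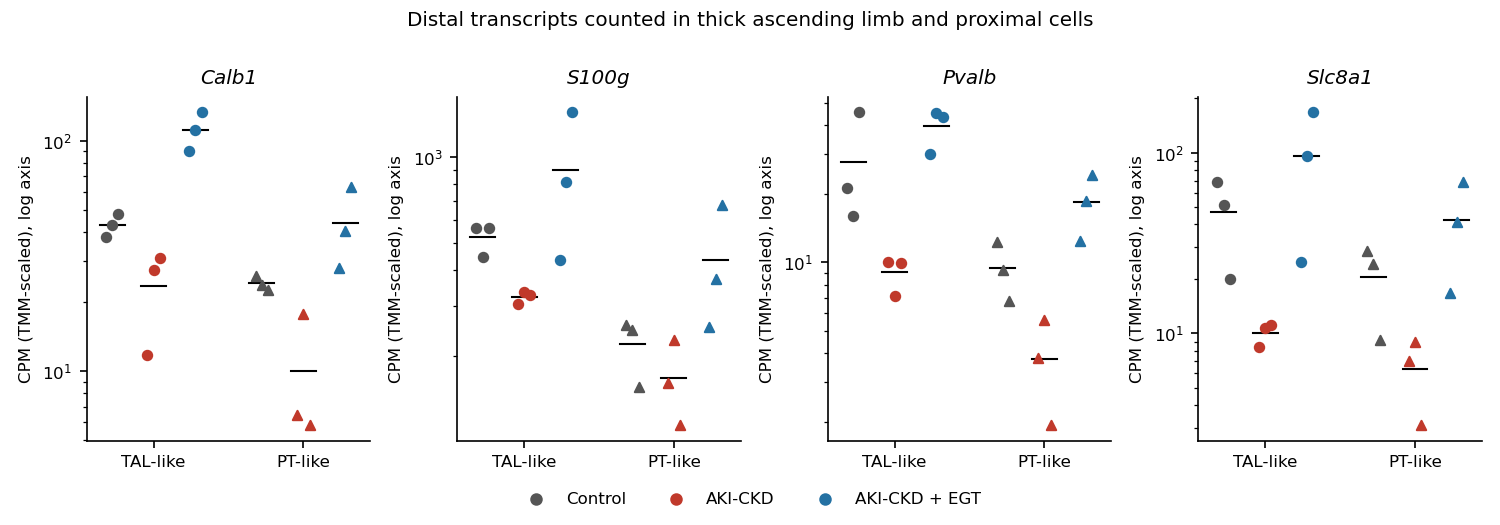
TMM-scaled CPM, on a log axis, of Calb1, S100g, Pvalb and Slc8a1 in TAL-like cells (circles) and PT-like cells (triangles) of the same mice, by group, with a bar at the mean of 3 mice. For each gene and in both classes the 3 AKI-CKD + EGT mice lie above the 3 AKI-CKD mice, as for Calb1 with 90.0 to 133 against 11.8 to 31.1 CPM in TAL-like cells. The Control mice lie between these groups for Calb1 in both classes. In TAL-like cells no gene has Control mice that overlap with AKI-CKD mice, while for S100g, Pvalb and Slc8a1 some overlap with AKI-CKD + EGT mice. In PT-like cells Control and AKI-CKD mice overlap for S100g.

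**Figure D5:**
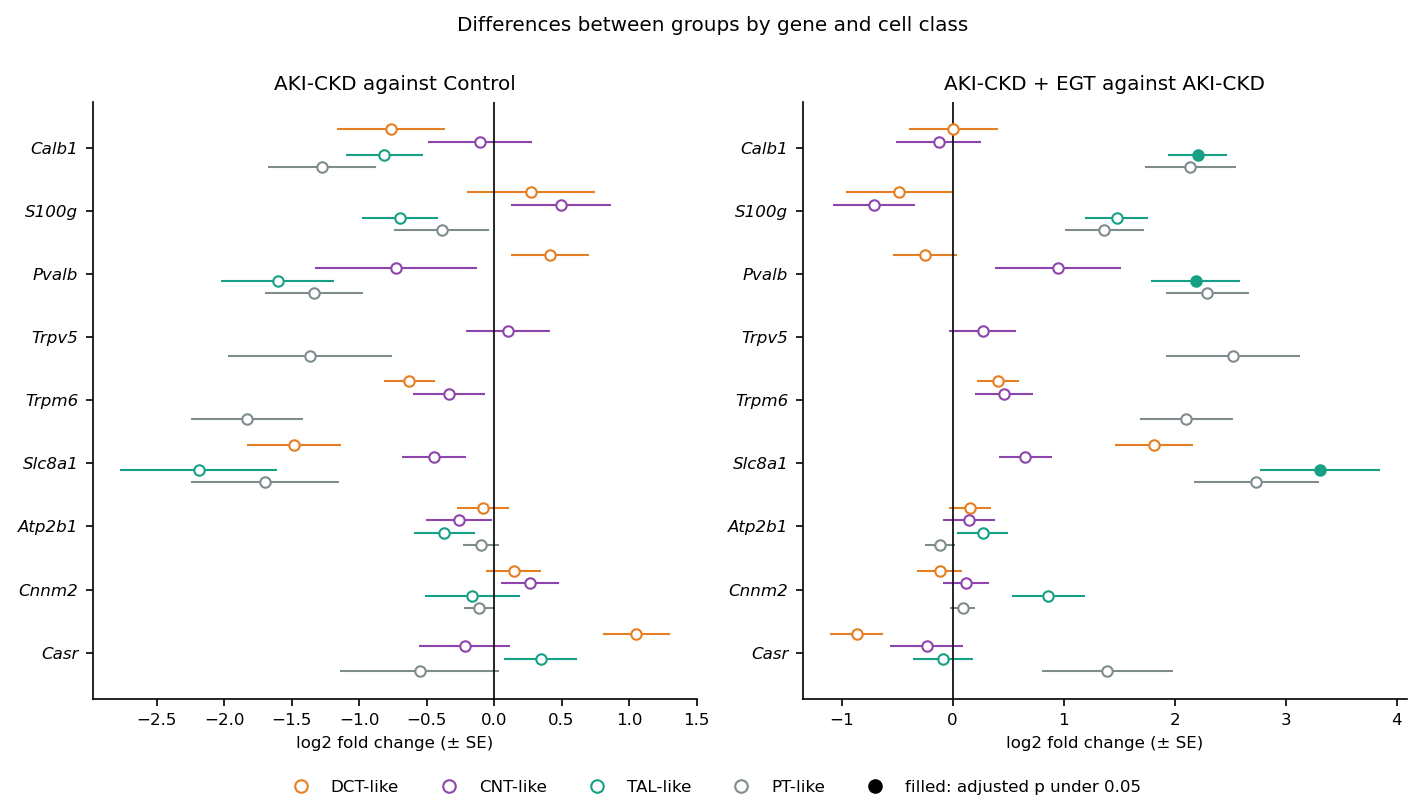
Log2 fold change ± standard error of each gene in DCT-like, CNT-like, TAL-like and PT-like cells in the cisplatin and the EGT comparison; filled symbols have an adjusted p under 0.05 in edgeR's quasi-likelihood test. The filled symbols are Calb1, Slc8a1 and Pvalb in TAL-like cells in the EGT comparison.

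The other genes of the pathway were taken from 4 lists of 52 genes, none of which passed in any class or comparison. In DCT-like cells 6 of 11 genes of vitamin D, parathyroid hormone and Klotho signalling could be tested, 9 of 16 other calcium channels, buffers, exchangers and pumps, 16 of 20 other magnesium transporters and regulators and 3 of 5 genes of the paracellular route. Their medians lay between -0.02 and 0.27 in the cisplatin comparison and between -0.05 and 0.00 in the EGT comparison. Kcnj10, a basolateral potassium channel on which magnesium uptake of the DCT depends, was at 161 ± 2.98 CPM in AKI-CKD and 104 ± 14.3 CPM in Control mice (0.63 ± 0.18, adjusted p = 0.455). S100a10, which binds the luminal calcium channels, was at 178 ± 42.2 CPM in AKI-CKD + EGT and 256 ± 50.8 CPM in AKI-CKD mice (-0.53 ± 0.22, adjusted p = 0.393), and Cyp24a1, which breaks down active vitamin D, at 26.1 ± 7.71 and 14.5 ± 3.83 CPM (0.89 ± 0.33, adjusted p = 0.341).

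In CNT-like cells 7, 7, 15 and 2 genes of the same lists could be tested. Atp2b2, another plasma membrane calcium pump, was at 36.4 ± 7.07 CPM in AKI-CKD and 58.3 ± 8.11 CPM in Control mice (-0.66 ± 0.30, adjusted p = 0.555), without overlap, as were 8.02% of all genes in that direction. Egfr, the receptor of the epidermal growth factor that stimulates magnesium uptake, was at 32.8 ± 20.6 CPM in AKI-CKD + EGT and 13.6 ± 4.08 CPM in AKI-CKD mice (1.26 ± 0.54, adjusted p = 0.348). Rxra, the partner of the vitamin D receptor, was at 86.2 ± 26.8 CPM in AKI-CKD and 60.2 ± 9.54 CPM in Control mice (0.47 ± 0.28, adjusted p = 0.603). The claudins of the tight junction were Cldn10, at 89.3 ± 27.8 CPM in AKI-CKD + EGT and 42.8 ± 11.1 CPM in AKI-CKD mice (1.12 ± 0.33, adjusted p = 0.278), and Cldn3, at 31.0 ± 7.77 CPM in AKI-CKD and 18.5 ± 3.84 CPM in Control mice (0.76 ± 0.32, adjusted p = 0.551).

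The genes most like each of the 9 were taken by Pearson's correlation of the log2 mean level over the 12 named classes, among 9759 genes with at least 20 CPM in a class. Over so few classes, which share the libraries, r describes a shared order of levels. Trpv5 and S100g were nearest to each other (r = 0.98), followed for Trpv5 by Egfem1 and Scnn1g, a subunit of the epithelial sodium channel (both r = 0.97). Trpm6 was most like Sall3 (r = 0.97), Slc12a3 and Klhl3 (both r = 0.96), the last 2 being genes of sodium chloride transport in the DCT. Slc12a3 and Klhl3 were also among the DCT markers used to name the classes, and Scnn1g among the CNT markers. The likeness of Trpm6 and Trpv5 to these markers is thus not independent of the naming. Pvalb was most like Lrrc52 (r = 0.97), Calb1 like Pgam2 (r = 0.97), Slc8a1 like Clu and Scube3 (both r = 0.95), Cnnm2 like Gm50431 (r = 0.95) and Casr like Slc5a3 and Rap1gap (both r = 0.97). The highest r for Atp2b1 was 0.87, with Eif2b3.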

How the data were processed

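Single-cell RNA libraries of 9 mouse kidneys were measured. The deposited values are raw UMI counts per gene and cell, which the authors made with PISA 1.0 per the file headers; the submitters' processing notes name GRCm39, and the aligner and annotation are not given in the sources used here. Cells with at least 1000 UMIs, 500 genes and at most 15% mitochondrial UMIs were kept, which are more cells than the study retained. Barcodes are not sequences in these files, so shared ones could not be counted, and doublets were not removed, since a caller marked almost no cells in earlier work. Log-normalised values of 2000 variable genes gave 30 principal components, adjusted between mice with Harmony (own code), and 26 Leiden clusters. The 21217 cells of the distal pool were clustered again, without the 9 genes and the pathway genes, into 21 clusters. A cluster was named from marker lists (at least 3 markers 2-fold higher, the highest mean fold, and no other class leading its top 10 genes).

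UMIs were summed per mouse and class and tested with edgeR 4.0.16 (quasi-likelihood, TMM, filterByExpr, Benjamini-Hochberg over all genes tested, 9 mice in 1 fit) in R 4.3.3 with limma 3.58.1, and with DESeq2 1.42.0 as an alternative; Python 3.11.15, numpy 2.4.6, scipy 1.17.1, scikit-learn 1.9.0, leidenalg 0.10.2 and matplotlib 3.10.9 did the rest. Per mouse, DCT-like sums held 660585 to 1954398 UMIs, CNT-like 384714 to 1152067, TAL-like 566060 to 1673492 and PT-like 40629957 to 75040080. The test was tested on simulated data for AKI-CKD against Control, where of 100 genes changed by 1 on the log2 scale it recovered 51 in DCT-like, 34 in CNT-like, 58 in TAL-like and 83 in PT-like cells, and of 100 changed by 2 it recovered 98, 90, 97 and 100. False calls were 8, 11, 7 and 11. The simulated counts were drawn independently for each gene, without shifts shared by many genes of a mouse. The recovery is therefore not the share of such changes that would pass in the real data. In PT-like cells the 9 genes had a median of 2.11 in the EGT comparison, and none passed. The 200 changed genes all had a mean log2 CPM of 4 or more. Recovery at lower levels, such as that of Trpv5 in PT-like cells, was therefore not simulated. Replicate numbers did not pair the mice, since 4 of 24 correlations between same-numbered mice were over 0.1 (from -0.30 to 0.33).

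The 9 genes and the pathway lists were chosen with earlier results of these data known, and the rule for naming clusters was settled after the clusters and the pooled levels of the 9 genes in them were seen, but before any comparison of groups. Named genes were the 9 genes, of each pathway list those called or otherwise the 2 with the largest difference in DCT-like or CNT-like cells with a mean log2 CPM of 4 or more, and for each gene the most similar genes across classes. No genome coordinates or sequences are given, since the reference at hand is of another build. The alternatives tried were another tool, no filter on low counts, other library sizes, 6 mice, a replicate block, each mouse left out, a gate on single cells, all variable genes, a proximal marker limit, a mitochondrial limit of 10% and, added after the data were seen, no Malat1-rich clusters and ratios to PT-like cells.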

Additional observations from a re-analysis of the deposited data

Results flagged for a closer look

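S100g differed in opposite directions in 2 cell classes in AKI-CKD against Control. In CNT-like cells each AKI-CKD mouse was above each Control mouse (0.50 ± 0.37 on the log2 scale, adjusted p = 0.664 in edgeR's quasi-likelihood test), as were 9.61% of all genes, and in TAL-like cells each was below (-0.70 ± 0.28, adjusted p = 0.474), as were 7.66%. Neither change passed the threshold. With a mouse left out, the CNT-like difference ran from 0.24 to 0.70 and the TAL-like one from -0.79 to -0.64. Without the Malat1-rich clusters the mice overlapped in both classes. CNT-like cells then had 44602.5, 72679 and 73496 CPM in Control and 67029, 75466 and 66872 CPM in AKI-CKD mice, before TMM scaling. TAL-like cells had 629, 442 and 275 CPM in Control and 356, 328 and 356 CPM in AKI-CKD mice. In PT-like cells S100g differed by -0.39 ± 0.35 (adjusted p = 0.665), with overlapping mice. The fold changes lie 1.19 apart on the log2 scale, and this difference was not tested. The S100g level was 25992 to 76189 CPM in CNT-like cells and 306 to 1430 CPM in TAL-like cells over the 9 mice, as TMM-scaled CPM.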

How the results depend on the processing

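Of 978 log2 fold changes under an alternative, 927 kept their side of the threshold, 15 lost a call and 36 gained one. Among the 927, the sign changed in 40, none of them called. Of 120 counts of genes called, 101 stayed within 1.5 times; the cause of the other changes was not tested. In DCT-like cells the count of 0 became 1 (Slc8a1) without a filter on low counts in either comparison (76 and 203 of 21841 genes called). It became 1 with DESeq2 in the EGT comparison (55 of 1093 genes called), where leaving out a mouse gave 0 to 1 (up to 30 genes called). In CNT-like cells leaving out a mouse gave 0 to 2 in that comparison (up to 840 of 7764 genes called). In TAL-like cells the cisplatin comparison gave 2 without the filter (70 of 21425 genes called). For the EGT comparison in TAL-like cells the count was 3, among 6 of 8773 genes called. It became 1 (Calb1) with the replicate block (1 of 8773) and without the 10% of distal cells with most proximal markers (1 of 8291). It became 4 (with S100g) without the filter (299 of 21425) and with the gate (30 of 9023). With all variable genes (27 of 8739) and with 6 mice (29 of 8205) it was also 4. With DESeq2 it stayed 3 (Calb1, S100g and Slc8a1), among 85 of 3564 genes called (2.38%). With a mouse left out it was 1 to 4, the latter 4 among 386 of 9361 genes called without EGT mouse 1. In PT-like cells the count of 0 became 2 in the cisplatin comparison, and 6 in the EGT comparison, with DESeq2 (195 and 405 of 17284 genes called) and likewise without the filter (95 and 229 of 30148), and 0 to 5 with a mouse left out of the latter (141 of 18631 genes called at the highest). The replicate block, which rests on numbers that did not pair the mice, changed no other count of the 9 genes called; over all genes it took the calls from 2 to 0 in CNT-like and from 8 to 0 in PT-like cells in the cisplatin comparison. Levels moved by over 1 SD in 9 of 27 cases with the gate, 10 of 27 with all variable genes and 13 of 27 without Malat1-rich clusters. By total UMIs over the kept cells, counting depth limits Trpv5 most (1759, of which 814 in CNT-like cells).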
